A study of Danio rerio with 26 samples.

Results

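Whole zebrafish embryos of the rbm8a line at 27 hours post fertilization (hpf) were compared with embryos of the same line at 21 hpf. All 6 libraries of each time were taken, chosen by the time in their labels, which is 12 of the 26 samples of the series. At each time 3 libraries were labelled rbm8a mutant and 3 were labelled sibling. The line carries oz36, a frame-shifting deletion made with CRISPR/Cas9 in the AB strain. Mutants are homozygous offspring of intercrossed heterozygotes, siblings are wild types and heterozygotes mixed, and each library was made from a pool of embryos without other treatment. Labels were balanced over the times and pooled, and levels of rbm8a overlapped between the labels, so libraries are called by their labels here. The 6 libraries of the magoh line at 21 hpf, 3 labelled mutant for the frame-shifting oz37 allele and 3 labelled sibling, served as another set of 21 hpf embryos of the AB strain.

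Between these times a zebrafish embryo ends the period in which somites form and begins to circulate blood and make pigment. Fast muscle fibres fill with sarcomeres, the repeating units in which myosin filaments pull on actin filaments when calcium binds the troponin complex. Behind the last somite, the presomitic mesoderm with its oscillating genes shrinks as the tail comes to its full length. The study compared mutants with siblings within a time. The comparison here takes the step between the times.

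The values were FPKM (fragments per kilobase of gene, scaled to library depth), which the authors scaled within each time only. Time therefore went with table, and by the study's methods 1 or more replicates of each experiment came from a separate sequencing run, which ones not being stated. Time, table and run cannot be told apart here. The median deposited FPKM over the genes tested was 1.81 to 1.90 in the 27 hpf libraries and 2.83 to 3.50 in the 21 hpf libraries, so all 12 libraries were brought to 1 common distribution by quantile normalization of log2(FPKM + 1), and levels below are normalised FPKM. Reads recovered from the values numbered 9193992 to 95877745 a library at 27 hpf and 1561184 to 71708321 at 21 hpf. The shallowest libraries were the 21 hpf libraries labelled mutant replicate 2 (1561184 reads) and replicate 3 (3063244 reads). Mutant replicate 2 stood apart, with 2203 of 29897 tested genes at 0 and correlations of 0.79 to 0.85 with the other libraries. Without it, libraries of different times correlated at 0.92 to 0.97 and 21 hpf libraries among themselves at 0.94 to 0.99, ranges that overlap. Marker lists of 13 cell types had summed levels above 1 normalised FPKM in every library, with the lowest sum, for germ cell genes, at 10.7. Members had already been filtered on level, so this rule was easily met and does not show that each cell type was detected.

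Of 29897 genes tested, 6 rose (0.0201%) and 0 fell (0%) at 27 hpf against 21 hpf, where a call in limma took both an adjusted p (Benjamini-Hochberg) under 0.05 and a 1.5-fold difference. At an unadjusted p under 0.05, 1395 genes (4.67%) lay higher and 1019 (3.41%) lower at 27 hpf, and the smallest adjusted p of a lower gene was 0.219. The 6 libraries of 27 hpf did not overlap the 6 of 21 hpf in 113 genes that lay higher (0.378%) and 71 that lay lower (0.237%). Without the 2 shallowest libraries, 249 genes (0.822%) lay higher and 292 (0.964%) lower without overlap. With fewer libraries non-overlap is more easily met by chance. Over all genes 46.0% lay above 0, and the median change was -0.03 on the log2 scale. Without any scaling it was -0.45, and 54 genes passed as higher and 4726 as lower.

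The count of 6 rested on single libraries. Leaving out the 21 hpf library labelled sibling replicate 3 gave 20 higher genes, mutant replicate 2 gave 11 and sibling replicate 1 gave 1. The 6 were among the 20 and among the 11, but the single gene of the last setting was not among the 6. Leaving out the 27 hpf library labelled sibling replicate 1 gave 17 higher genes and 1 lower. No gene passed when any 1 of the other 8 libraries was left out, namely 27 hpf mutant replicates 1, 2 and 3 and sibling replicates 2 and 3, and 21 hpf mutant replicates 1 and 3 and sibling replicate 2. With both shallow libraries left out 0 genes passed, with 2463 at an unadjusted p under 0.05. With libraries weighted by their quality in limma, 109 genes passed as higher and 54 as lower, the 6 among them.

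Genes of 3 fast muscle proteins were among the 6 genes that rose. Tnnt3b and tnnt3a encode fast skeletal troponin T, the subunit that ties the calcium sensor to tropomyosin, and pvalb2 encodes a parvalbumin, a soluble calcium buffer of fast fibres. Tnnt3b had 6.01, 6.88 and 13.3 normalised FPKM in 27 hpf embryos (lowest, median and highest of 6 libraries), against 0.707, 1.49 and 2.5 in 21 hpf embryos. Its log2 change was 1.90 ± 0.24 (SE), with an adjusted p of 0.0315 in limma. Tnnt3a stood at 12.7, 26.2 and 30.4 normalised FPKM at 27 hpf, against 0.745, 3.65 and 7.08 at 21 hpf, a log2 change of 2.47 ± 0.34 (adjusted p 0.0414, limma). For pvalb2 the levels were 22.0, 41.9 and 52.5 normalised FPKM at 27 hpf and 3.44, 5.98 and 14.5 at 21 hpf, and it rose by 2.30 ± 0.33 (adjusted p 0.0414, limma). None of the 3 genes overlapped between the times. The 21 hpf library labelled sibling replicate 3 was the highest 21 hpf library in each of the 6 genes, and mutant replicate 2 the lowest in 4 of them.

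**Figure D1:**
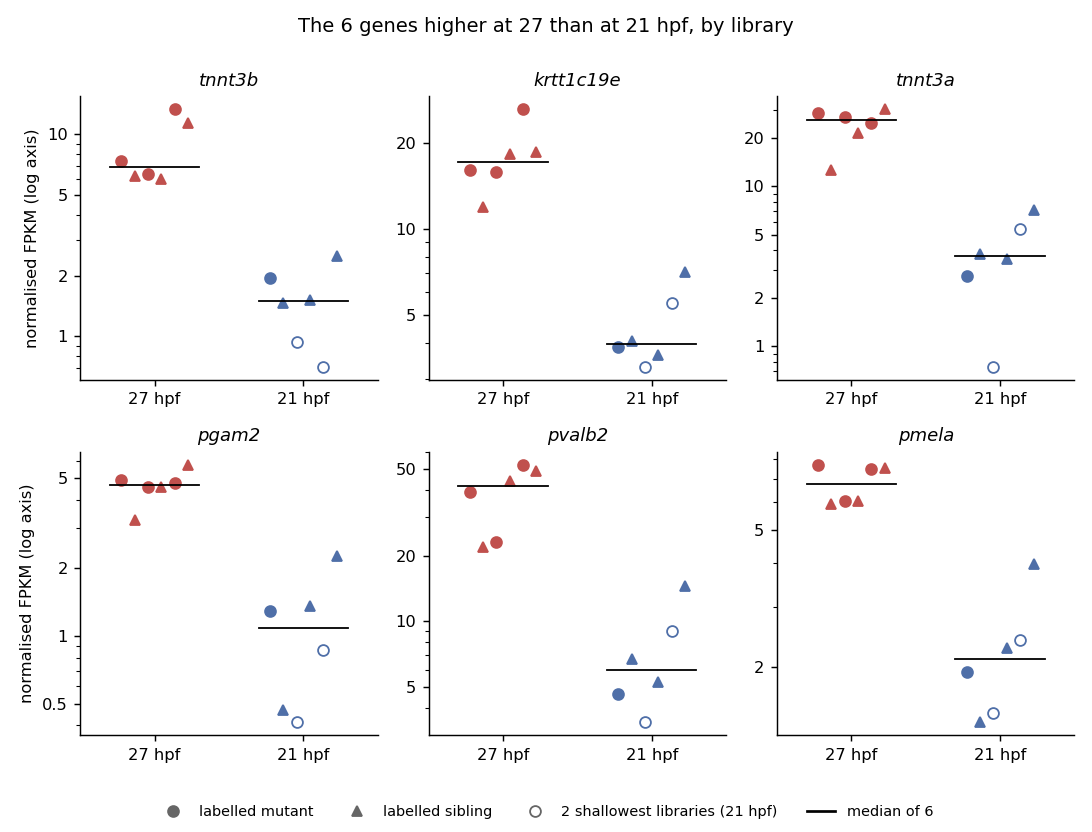
Levels of the 6 genes that rose, in normalised FPKM on log axes, with 27 hpf libraries on the left and 21 hpf libraries on the right of each panel. Circles are libraries labelled mutant, triangles libraries labelled sibling, open circles the 2 shallowest libraries, and bars the median of 6. In every panel the lowest 27 hpf library lies above the highest 21 hpf library, for tnnt3b at 6.01 above 2.5.

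The other 3 genes that rose belong to metabolism, skin and pigment. Pgam2, the muscle form of the glycolytic enzyme phosphoglycerate mutase, had 3.27, 4.69 and 5.75 normalised FPKM at 27 hpf, against 0.414, 1.08 and 2.27 at 21 hpf, and rose by 1.47 ± 0.21 (log2, SE, adjusted p 0.0414, limma). Its lowest 21 hpf value stands for 0 reads, in the shallowest library. Krtt1c19e, a type I keratin of basal epidermal cells, stood at 11.9, 17.2 and 26.2 normalised FPKM at 27 hpf and 3.30, 3.97 and 7.07 at 21 hpf, a change of 1.76 ± 0.22 (adjusted p 0.0315, limma). Pmela encodes the protein on whose fibrils melanin is laid down. It had 5.93, 6.77 and 7.71 normalised FPKM at 27 hpf, against 1.39, 2.11 and 3.99 at 21 hpf, with a change of 1.3 ± 0.19 (adjusted p 0.0414, limma). Support by reads was thin in the shallowest library, where the 6 genes had 0 to 23 reads each.

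Skeletal muscle contractile genes held the highest median change of the lists examined. All 38 were tested, 3 rose and 0 fell. Of them 37 lay above 0 and the median log2 change was 1.08, beside 46.0% above 0 and a median of -0.03 over all genes. For 13 of the 38 the libraries of the times did not overlap, all with the higher level at 27 hpf, beside 0.378% of all genes tested. Without the 2 shallowest libraries the count was 15, beside 0.822% of all genes tested, and the median was 0.89. The summed level of the list ran from 871 to 1836 normalised FPKM in 27 hpf libraries, against 281 to 893 in 21 hpf libraries, so that the ranges overlapped slightly. In pooled whole embryos, more muscle cells and more RNA per muscle cell cannot be told apart. Here and in the lists below, values of single members, other than those of genes that rose, are those of the 2 most abundant members of a list without calls or were chosen after they were seen. Counts of calls and of genes without overlap in the lists below stand beside the shares over all genes tested. These were 0.0201% called higher, 0% called lower, and 0.378% higher and 0.237% lower without overlap. At such shares 0 calls in a list is not a result about its members.

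Among the thin filament genes, tnni2a.4, a fast troponin I that blocks actin at rest, had 19.4, 30.6 and 53.8 normalised FPKM at 27 hpf, against 1.40, 2.56 and 13.0 at 21 hpf. Other fast troponin I genes lay far lower in the list, with 0.16 ± 0.14 for tnni2a.3, 0.35 ± 0.41 for tnni2b.2 and 0.41 ± 0.39 for tnni2a.2. For tnni2a.4 the change of 2.74 ± 0.44 was the largest of the list and the adjusted p was 0.0621 in limma, short of the threshold. Tropomyosin gene tpma, whose product lies along actin, stood at 51.7, 105 and 124 normalised FPKM at 27 hpf and at 6.12, 25.0 and 42.5 at 21 hpf, with a change of 2.10 ± 0.38. The troponin C genes, which encode the calcium sensor itself, had changes of 1.45 ± 0.28 (tnnc1b) and 1.35 ± 0.34 (tnnc2). In tnnc2 the 27 hpf levels were 18.7, 29.2 and 34.9 normalised FPKM, against 2.84, 12.0 and 16.5 at 21 hpf. Skeletal actins had smaller changes, of 1.21 ± 0.43 for acta1b and 0.65 ± 0.34 for acta1a, and their libraries overlapped.

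Thick filament genes were split. The myosin light chain mylz3 had 25.8, 40.2 and 72.3 normalised FPKM at 27 hpf, against 6.41, 10.01 and 20.8 at 21 hpf (change 1.93 ± 0.32, adjusted p 0.0630 in limma), and mylpfb, a regulatory light chain of fast muscle, had a change of 1.81 ± 0.39. Mylpfa, the most abundant member at 27 hpf with a median of 122 normalised FPKM, stood at 23.6 at 21 hpf, and its libraries overlapped. The light chains myl10 and myl1 had smaller changes, of 1.199 ± 0.47 and 0.904 ± 0.32, and their libraries overlapped. Light chains thus lay on both sides of the split. The heavy chains were abundant at both times and showed smaller changes, of 1.15 for myhz1.1, 1.00 for myhz1.2, 0.84 for myha and 0.84 for myhz2. The slow muscle heavy chain smyhc1 changed by 0.62 ± 0.46. The myosin heavy chains, like the globins below, are near-identical copies, and reads that matched up to many places were kept in mapping, so values of single copies are uncertain.

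Some calcium and energy handling genes of fast fibres lay among the larger changes. Pvalb1 had 8.81, 18.8 and 33.5 normalised FPKM at 27 hpf, against 0.256, 1.62 and 4.66 at 21 hpf, a change of 2.66 ± 0.41 with an adjusted p of 0.0621 in limma, and pvalb4 changed by 1.48 ± 0.30. Creatine kinases, which renew ATP during contraction, stood at 35.2, 66.3 and 105 (ckma) and 42.7, 79.7 and 127 (ckmb) normalised FPKM in 27 hpf embryos. At 21 hpf ckma had 8.86, 13.2 and 32.7 and ckmb 5.49, 19.6 and 41.9 normalised FPKM. Neither creatine kinase overlapped between the times. Other calcium genes of the list had smaller changes and overlapping libraries, with 1.25 ± 0.47 for atp2a1, 0.60 ± 0.39 for pvalb3 and 0.17 ± 0.18 for casq1b. Low in the list, among genes of several kinds, lay nebulin (neb) at 0.41 ± 0.30, titin b (ttnb) at 0.29 ± 0.32 and the ryanodine receptor gene ryr1b at -0.07 ± 0.15, the single member below 0.

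**Figure D2:**
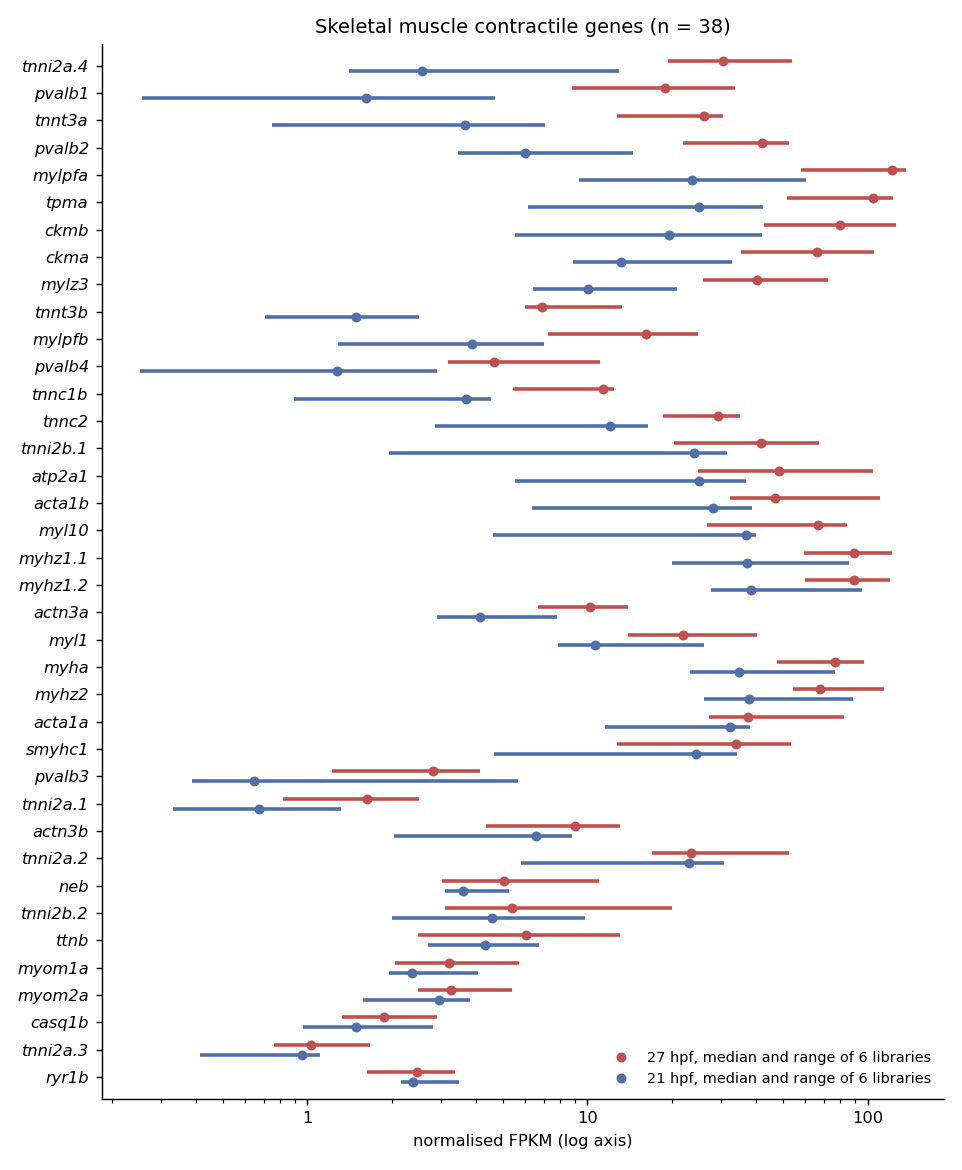
Levels of the 38 skeletal muscle contractile genes in normalised FPKM on a log axis, ordered by log2 change with the largest on top. Points are medians and lines ranges of 6 libraries, 27 hpf above 21 hpf in each row. The ranges separate in 13 genes, most of them in the upper rows, and the median of the list was 1.08.

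Myogenic regulators, the transcription factors that start and hold the muscle programme, had a lower median change than the contractile genes. Of 15 tested 0 rose and 0 fell, and the median change was -0.01, beside 1.08 for the contractile genes. At an unadjusted p under 0.05 in limma 0 passed, beside 8.07% of all genes, a share too small to tell from 0 in 15 genes. Myod1, which commits cells to muscle, had a median of 12.0 normalised FPKM at 27 hpf and 14.9 at 21 hpf (change 0.01 ± 0.48), and pax7a, a gene of muscle precursors and neural crest, changed by -0.01 ± 0.60. Both are the most abundant members, and their SEs leave the single changes uncertain.

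Presomitic mesoderm and somite clock genes were divided. Of 26 tested members 0 rose and 0 fell, 11 lay above 0, beside 46.0% of all genes, and the median change was -0.13. At an unadjusted p under 0.05 in limma 7 lay lower and 2 higher, beside 3.41% and 4.67% of all genes. Msgn1, a regulator and marker of the presomitic mesoderm, had 1.06, 1.78 and 2.96 normalised FPKM at 27 hpf, against 2.96, 3.69 and 5.05 at 21 hpf. The top library of 27 hpf and the bottom library of 21 hpf both round to 2.96, and the change was -0.80 ± 0.18 (adjusted p 0.261, limma). Tbx6, which patterns somite borders, likewise did not overlap, with 0.838, 1.12 and 1.67 normalised FPKM at 27 hpf, against 1.70, 1.93 and 2.62 at 21 hpf (change -0.46 ± 0.14). Other members lay on both sides. Below 0 were tbx16 (-0.73), ripply2 (-0.68), pcdh8 (-0.55) and cdx4 (-0.54), and above it dld (0.57), cyp26a1 (0.53), ripply1 (0.04) and ta (0.03). The change of tbx16 was -1.33 in libraries labelled mutant and -0.21 in those labelled sibling, and that of ripply2 was -1.21 in libraries labelled mutant and -0.24 in those labelled sibling. Among the repressors of the her and hes family, her7 (-0.51) and her1 (-0.39) lay below 0 and her12 (0.47), hes6 (0.43) and her11 (0.07) above it. Lfng and dlc, Notch pathway genes with roles outside the clock too, were the most abundant members and changed by 0.75 ± 0.30 and -0.15 ± 0.28. The adjusted p of lfng was 0.600 and that of dlc 0.900 in limma.

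**Figure D3:**
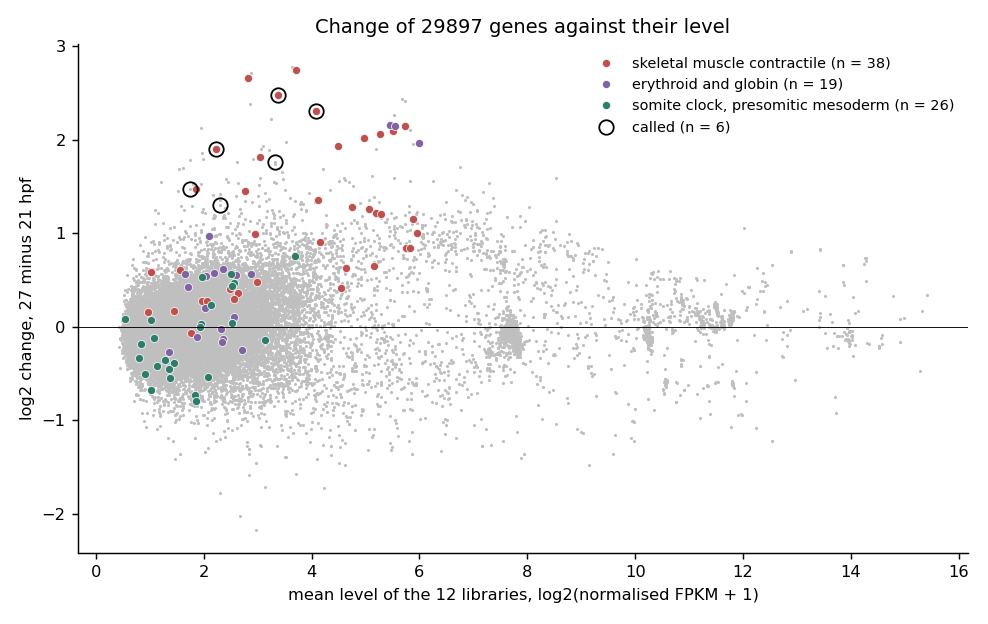
Log2 change, 27 minus 21 hpf, of 29897 genes against their mean level over 12 libraries, in log2(normalised FPKM + 1). Grey points are all genes, coloured points 3 lists and black rings the 6 genes that rose. Skeletal muscle genes (n = 38) lie above 0 but for 1, and the genes of the presomitic mesoderm (n = 26) lie on both sides.

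Blood genes split between globins and regulators. Of 19 erythroid genes tested 0 rose and 0 fell, 13 lay above 0, and the median was 0.54, which became 0.28 without the 2 shallowest libraries. Embryonic globins carry oxygen in the first circulating red cells. Hbae1 had 37.7, 97.5 and 184 normalised FPKM at 27 hpf, against 10.201, 19.6 and 33.3 at 21 hpf, with a change of 2.15 ± 0.37 and an adjusted p of 0.0736 in limma. Hbae3 stood at 47.8, 101 and 177 normalised FPKM at 27 hpf and 7.11, 26.8 and 35.2 at 21 hpf, and hbbe3 at 59.4, 120.3 and 226 normalised FPKM at 27 hpf and 8.75, 38.2 and 55.6 at 21 hpf. None of these 3 globins overlapped between the times, which is 3 of 19 in the list, beside 0.378% of all genes tested. A further globin, hbbe2, changed by 0.97 ± 0.25 (adjusted p 0.335, limma). Its libraries overlapped, with a lowest level of 2.96 normalised FPKM at 27 hpf and a highest of 3.06 at 21 hpf. Heme enzymes lay in between, with 0.56 ± 0.19 for alas2 and 0.58 ± 0.21 for fech, and the red cell regulators gata1a (-0.11), tal1 (-0.13) and klf1 (-0.17) lay below 0. The summed level of the list was 201 to 673 normalised FPKM at 27 hpf and 73.0 to 185 at 21 hpf.

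In the other lists of the circulation, single genes did not overlap between the times. They were 2 of 18 cardiac, 1 of 22 endothelial and 1 of 19 myeloid genes, all higher at 27 hpf. Over all genes tested 0.378% lay higher without overlap. Of 18 cardiac genes 0 rose and 0 fell and the median was 0.03. The myosin light chains of the heart did not overlap. Cmlc1 had 5.14, 7.02 and 9.69 normalised FPKM at 27 hpf, against 0.432, 2.47 and 4.03 at 21 hpf (change 1.41 ± 0.29), and myl7 changed by 0.90 ± 0.23. Gata4, an abundant cardiac member by its mean, stood at 105 normalised FPKM in the 21 hpf library labelled mutant replicate 2 and at 1.92 to 5.04 in the other 21 hpf libraries, against 2.10 to 10.3 at 27 hpf. Ttn.2, a titin of heart and trunk muscle, changed by 0.10 ± 0.36.

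Of 22 endothelial genes 0 passed in either direction and the median was 0.00. Aqp1a.1, a water channel, did not overlap, at 3.29, 4.77 and 8.66 normalised FPKM at 27 hpf, against 0.644, 1.79 and 2.67 at 21 hpf. The abundant receptor tek and the Notch ligand dll4 changed by 0.13 ± 0.57 and -0.44 ± 0.26. Among 19 myeloid genes, with a median of -0.05, lyz, the lysozyme of granulocytes and macrophages, did not overlap, at 2.26, 3.53 and 6.05 normalised FPKM at 27 hpf and 0.214, 0.984 and 1.73 at 21 hpf. Its change was 1.29 ± 0.24 with an adjusted p of 0.0985 in limma. Read support was thin, with 2, 1 and 3 reads of lyz in the 21 hpf libraries labelled mutant replicates 1 to 3. In the 2 shallowest libraries, mutant replicates 2 and 3, cmlc1 had 3 and 1 reads and aqp1a.1 had 1 and 5. The myeloid transcription factors spi1a and cebpa, the most abundant members, changed by -0.21 ± 0.27 and -0.07 ± 0.17.

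Pigment genes lay mostly higher at 27 hpf. Of 18 tested 1 rose, pmela, and 0 fell, 14 lay above 0 and the median was 0.18. Gch2, which starts the pteridine pathway of yellow pigment cells, did not overlap, at 10.8, 20.6 and 25.9 normalised FPKM at 27 hpf and 1.97, 5.77 and 10.4 at 21 hpf (change 1.58 ± 0.33, adjusted p 0.219 in limma). The melanin enzymes tyrp1b, dct and tyr had changes of 1.02 ± 0.23, 1.01 ± 0.26 and 0.69 ± 0.29, but their relative tyrp1a had -0.15 ± 0.38, and the melanosome genes oca2, pmelb and slc24a5 had 0.04, 0.05 and 0.20. Mitfa, the regulator that specifies melanophores, had a change of 0.26 ± 0.15. At the other end lay aox5, an oxidase of yellow pigment cells, at -0.72 ± 0.47. In the 14 early neural crest genes 0 passed and the median was 0.18, but 0.04 without 21 hpf mutant replicate 2 and -0.01 without the 2 shallowest libraries, and the abundant members tfap2c and zic2b changed by 0.03 ± 0.48 and 0.28 ± 0.25.

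In the eye, lens and retina lists differed in sign, but the sign of the retina median was not stable. Of 57 lens genes tested, out of 63 matched, 0 rose and 0 fell, 36 lay above 0 and the median was 0.22. A pair of beta crystallins, structural proteins of lens fibres, did not overlap, which is 2 of 57, beside 0.378% of all genes tested. Cryba1l1 stood at 2.38, 7.80 and 11.8 normalised FPKM at 27 hpf and 0.661, 0.810 and 2.34 at 21 hpf (change 1.86 ± 0.34), and cryba1b changed by 1.69 ± 0.32. The most abundant members lim2.4 and crybb1 changed by -0.37 ± 0.74 and 0.08 ± 0.54. The 29 retina and pineal genes tested had a median of -0.18 with 0 calls, and the eye field gene pax6a changed by -0.21 ± 0.37. The retina median was -0.06 without 21 hpf mutant replicate 2 and -0.03 without the 2 shallowest libraries. It was 0.04 in libraries labelled sibling alone, and 25 of 27 alternatives kept its sign.

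Nervous system lists held 0 calls, beside 0.0201% of all genes tested. The 29 neural progenitor and proneural genes had a median of 0.25 with 26 above 0, and their abundant members sox3 and sox19a, factors that hold cells as progenitors, changed by 0.57 ± 0.26 and 0.71 ± 0.46. The 41 neuron and synapse genes had a median of -0.05. Of these vamp2, a protein of synaptic vesicle release, did not overlap, at 2.24, 2.53 and 4.397 normalised FPKM at 27 hpf and 1.48, 1.78 and 1.85 at 21 hpf (change 0.45 ± 0.14). The RNA-binding protein gene elavl3, a mark of new neurons, and the vesicle protein gene sv2a changed by 0.10 ± 0.26 and -0.26 ± 0.36. Of 155 channel genes tested out of 156 matched, 33 lay above 0, beside 46.0% of all genes. Their median was -0.17, but -0.03 without 21 hpf mutant replicate 2 and 0.01 without the 2 shallowest libraries. The potassium channels kcnj12b and kcnk2a, the most abundant, changed by -0.94 ± 0.36 and -0.35 ± 0.48.

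The median was 0.02 in 16 glial and myelin genes (mbpa 0.02 ± 0.70, olig2 -0.48 ± 0.47) and -0.18 in 28 neuropeptide and hormone genes tested (cga 0.12 ± 0.28, oxt -0.65 ± 0.32). The neuropeptide median was 0.01 without 21 hpf mutant replicate 2 and 0.06 without the 2 shallowest libraries, with its sign turned. In 19 otic and hair cell genes it was -0.07, where pvalb9 changed by 0.63 ± 0.40. Pax8, an early ear and kidney factor, stood at 217 normalised FPKM in the 21 hpf library labelled mutant replicate 2 and at 2.89 to 8.37 in the other 21 hpf libraries, against 2.60 to 13.3 at 27 hpf.

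At the body surface the keratins and claudins held 1 gene that rose, krtt1c19e, and 0 that fell, with a median of -0.02 over 51 genes. The sign of this median was not stable, and it was 0.04 without the 2 shallowest libraries. Cldn1, a tight junction protein of skin, did not overlap, at 5.86, 8.04 and 10.5 normalised FPKM at 27 hpf and 1.94, 3.79 and 5.09 at 21 hpf. Hatching gland genes, 9 tested, had a median of 0.54, but 0.27 without 21 hpf mutant replicate 2 and 0.14 without the 2 shallowest libraries. The hatching enzyme gene he1b changed by 1.12 ± 0.38, the cathepsin ctslb by 0.54 ± 0.21, and agr2, a secretory pathway gene of mucous and gland cells, did not overlap, at 4.1, 7.18 and 10.5 normalised FPKM at 27 hpf and 1.79, 2.78 and 3.84 at 21 hpf. Ca2, a carbonic anhydrase of ionocytes, did not overlap either (change 0.85 ± 0.22), while slc12a10.2, a chloride carrier of the same cells, changed by 0.03 ± 0.33. The 14 ionocyte genes had a median of -0.03.

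Fin fold and pectoral fin genes, 13 in all, had a median of 0.06, with and2, an actinodin of fin fold fibres, at 0.19 ± 0.55 and sall4 at 0.16 ± 0.35. The 50 collagens had a median of -0.05 (col12a1b 0.04 ± 0.45, col5a2a -0.30 ± 0.26), and the 15 notochord and floor plate genes -0.13 (cmn, calymmin of the notochord sheath, -0.09 ± 0.58, col8a1a -0.25 ± 0.26). Over all genes tested 0.0201% were called, and 0.378% lay higher and 0.237% lower without overlap. Near those shares, no member of these 3 lists passed the test or separated the times. Of the same kind were the 15 pronephros genes, with a median of -0.11, where the ion carriers atp1a1a.4 and slc12a3 changed by 0.09 ± 0.35 and -0.18 ± 0.30.

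Of the yolk and lipoprotein genes 2 of 31 did not overlap, and of the gut, liver and pancreas genes 1 of 22. All lay higher at 27 hpf, beside 0.378% of all genes tested. The 31 yolk and lipoprotein genes had a median of 0.49 with 25 above 0 and 0 calls, and a median of 0.24 without 21 hpf mutant replicate 2 and 0.26 without the 2 shallowest libraries. Apoea, a lipid carrier, had 4.63, 6.93 and 12.1 normalised FPKM at 27 hpf and 1.18, 3.25 and 4.14 at 21 hpf. Apom was also without overlap (change 1.21 ± 0.34), with 0 reads in the shallowest 21 hpf library. The most abundant members apoa1a and apoa1b changed by 1.13 ± 0.29 and 0.60 ± 0.26. Among 22 gut, liver and pancreas genes, with a median of 0.09, the fibrinogen gene fgg of the liver did not overlap, at 5.13, 7.30 and 8.85 normalised FPKM at 27 hpf and 0.995, 3.57 and 4.53 at 21 hpf, while fabp2 and sox17 changed by 0.47 ± 0.51 and 0.01 ± 0.32.

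Growth and housekeeping lists lay higher as blocks, without a single call and with overlapping libraries. Of 77 cytosolic ribosomal protein genes 76 lay above 0, beside 46.0% of all genes, with a median of 0.90. Rps2 and rplp0 changed by 0.69 ± 0.37 and 0.51 ± 0.23. The summed level of the list ran from 4880.4 to 13936 normalised FPKM at 27 hpf and from 2361 to 8223 at 21 hpf. Of 88 nuclear genes of the respiratory chain 79 lay above 0 (median 0.62), with atp5b at 0.88 ± 0.34 and cox5b1 at -0.65 ± 0.37. Of 73 mitochondrial ribosomal protein genes 68 lay above 0 (median 0.39), with mrpl28 at 0.43 ± 0.34. These medians became 0.41, 0.41 and 0.23 without the 2 shallowest libraries. The 13 histone genes had a median of 0.66 (hist1h2ba 0.74 ± 0.30, hist2h3c 0.66 ± 0.27), which was 0.40 without 21 hpf mutant replicate 2 and 0.34 without the 2 shallowest libraries. Without mutant replicate 2 alone the cytosolic ribosomal median was 0.53. The median was 0.27 in 43 replication and mitosis genes (pcna 0.86 ± 0.45, rrm2 0.65 ± 0.43).

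Stress, signalling and patterning lists had medians of -0.20 to 0.28, with 0 calls. Heat shock genes, 20 tested, had a median of 0.28 (hspa8 0.64 ± 0.24, hsp90ab1 0.81 ± 0.39), p53 pathway and apoptosis genes, 23 tested, 0.18 (ccng1 1.05 ± 0.53, mdm2 -0.19 ± 0.40) and immediate early genes, 19 tested, -0.20 (jun 0.33 ± 0.27, klf6a 0.41 ± 0.19). Over 45 hox genes, which set position along the body, the median was -0.08 (hoxc4a -0.66 ± 0.39, hoxc12a 0.11 ± 0.43). Wnt, Fgf and Bmp ligands, 69 tested of 71, had -0.05 (fgf16 0.29 ± 0.59, fgf18a 0.19 ± 0.22). Without 21 hpf mutant replicate 2 the heat shock median was 0.09 and that of immediate early genes -0.08, and without the 2 shallowest libraries they were 0.03 and 0.00.

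Among 30 circadian clock genes the median was -0.07 (cry1ba -0.10 ± 0.34, cry1bb 0.02 ± 0.33). Per1b, a clock repressor, did not overlap, with 1.66, 1.86 and 2.19 normalised FPKM at 27 hpf and 2.33, 2.59 and 2.66 at 21 hpf (change -0.28 ± 0.11). The 11 germ cell genes had a median of -0.21 (piwil1 -0.11 ± 0.26). Tdrd7a, a germ granule gene, stood at 14.5 normalised FPKM in the 21 hpf library labelled mutant replicate 2 and at 0.693 to 1.66 in the other 21 hpf libraries, against 0.478 to 2.11 at 27 hpf. Without that library the germ cell median was -0.11 and that of notochord and floor plate genes -0.04. Lists with medians nearer 0 also turned their sign without it, with 0.08 for myogenic regulators, 0.10 for neuron and synapse genes, 0.10 for keratins and claudins and 0.01 for Wnt, Fgf and Bmp ligands.

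The exon junction complex (EJC) is laid on spliced RNA by a core of Eif4a3, Rbm8a and Magoh and marks RNAs for nonsense-mediated decay when it remains downstream of a stop codon. Rbm8a, the gene disrupted in this line, had 4.33, 4.06 and 15.3 normalised FPKM in the 27 hpf libraries labelled mutant replicates 1 to 3 and 3.82, 14.9 and 18.2 in those labelled sibling. At 21 hpf the values were 5.47, 4.89 and 7.09 in libraries labelled mutant and 6.11, 10.7 and 13.4 in libraries labelled sibling. At both times the labels overlapped, and 1 library labelled mutant at 27 hpf was as high as libraries labelled sibling. Between the times rbm8a changed by 0.14 ± 0.41 (adjusted p 0.936, limma).

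Magoh had 20.1, 15.8 and 16.6 normalised FPKM in 27 hpf libraries labelled mutant and 8.83, 23.1 and 19.5 in those labelled sibling. The 21 hpf values of this gene were 18.1, 10.6 and 8.37 normalised FPKM in libraries labelled mutant and 14.5, 15.15 and 13.6 in those labelled sibling. The change of 0.33 ± 0.26 did not pass the test. Eif4a3 had 20.3, 16.7 and 14.05 normalised FPKM in 27 hpf libraries labelled mutant and 7.63, 15.7 and 15.4 in those labelled sibling. Its 21 hpf values were 13.7, 4.84 and 6.99 in libraries labelled mutant and 10.7, 10.4 and 8.14 in those labelled sibling, a change of 0.67 ± 0.27 (adjusted p 0.601, limma). Over 18 EJC and decay factors the median change was 0.01, with 0 calls.

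**Figure D4:**
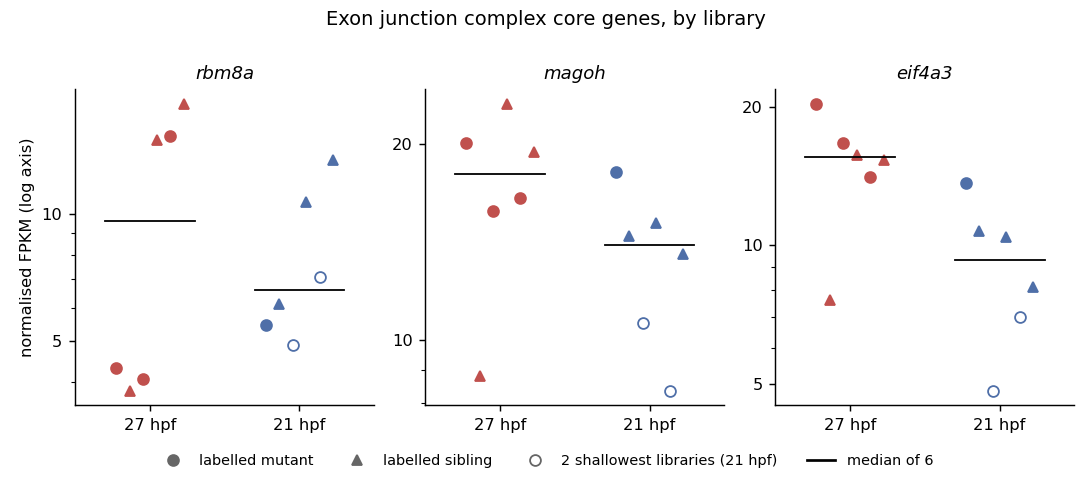
Levels of rbm8a, magoh and eif4a3 in normalised FPKM on log axes, 27 hpf libraries left of 21 hpf libraries. Circles are libraries labelled mutant, triangles libraries labelled sibling, open circles the 2 shallowest libraries and bars medians of 6. Rbm8a lies between 3.82 and 18.2 at 27 hpf and between 4.89 and 13.4 at 21 hpf, with circles and triangles mixed.

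Differences that go with the table, line or mutated gene rather than with age were measured by setting the 21 hpf rbm8a libraries against the 21 hpf magoh libraries. This comparison shares the 21 hpf rbm8a libraries with the one above, so values are given side by side. Of 30383 genes 0 passed (0%) by limma, with a smallest adjusted p of 0.0710, but 6911 (22.7%) had an unadjusted p under 0.05. Leaving out the magoh library labelled sibling replicate 2 gave 83 genes, rbm8a mutant replicate 2 gave 3 and magoh mutant replicate 1 gave 1, and leaving out both shallow libraries gave 2. Lists that lay higher as blocks at 27 hpf also lay higher between the lines at 21 hpf, with medians of 1.36 for cytosolic ribosomal proteins, 0.61 for replication and mitosis genes, 0.81 for yolk and lipoprotein genes, 0.65 for heat shock genes, 0.64 for hatching gland genes and 0.49 for the respiratory chain. Channel genes stood at -0.39. Both sets in this comparison were at 21 hpf.

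For the muscle list the median was 1.08 between the times and 0.60 between the lines, and 25 of 38 members had the larger value between the times. The genes that rose had smaller values between the lines than between the times, at 0.03 for tnnt3b, -0.01 for pgam2, -0.05 for pmela, 0.24 for krtt1c19e, 0.66 for tnnt3a and 0.77 for pvalb2. The rbm8a libraries of the earlier time are subtracted between the times and added between the lines. Genes that rose, and genes without overlap, were picked partly on their levels in these libraries. Smaller values between the lines were thus favoured in advance and are not an independent check. The count of 25 of 38 rests on the same shared libraries. The globins without overlap stood between the lines at 1.62 for hbae1, 1.59 for hbae3 and 1.92 for hbbe3. Of the genes without overlap, lyz stood at -0.52, cmlc1 at -0.44, cryba1l1 at -0.58, aqp1a.1 at 0.08 and msgn1 at 0.02 between the lines. Others stood higher, with 1.14 for tnnc2 and 0.95 for tnni2a.4. Muscle genes without overlap ran from -0.62 (mylpfb) to 1.36 (ckmb) between the lines.

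**Figure D5:**
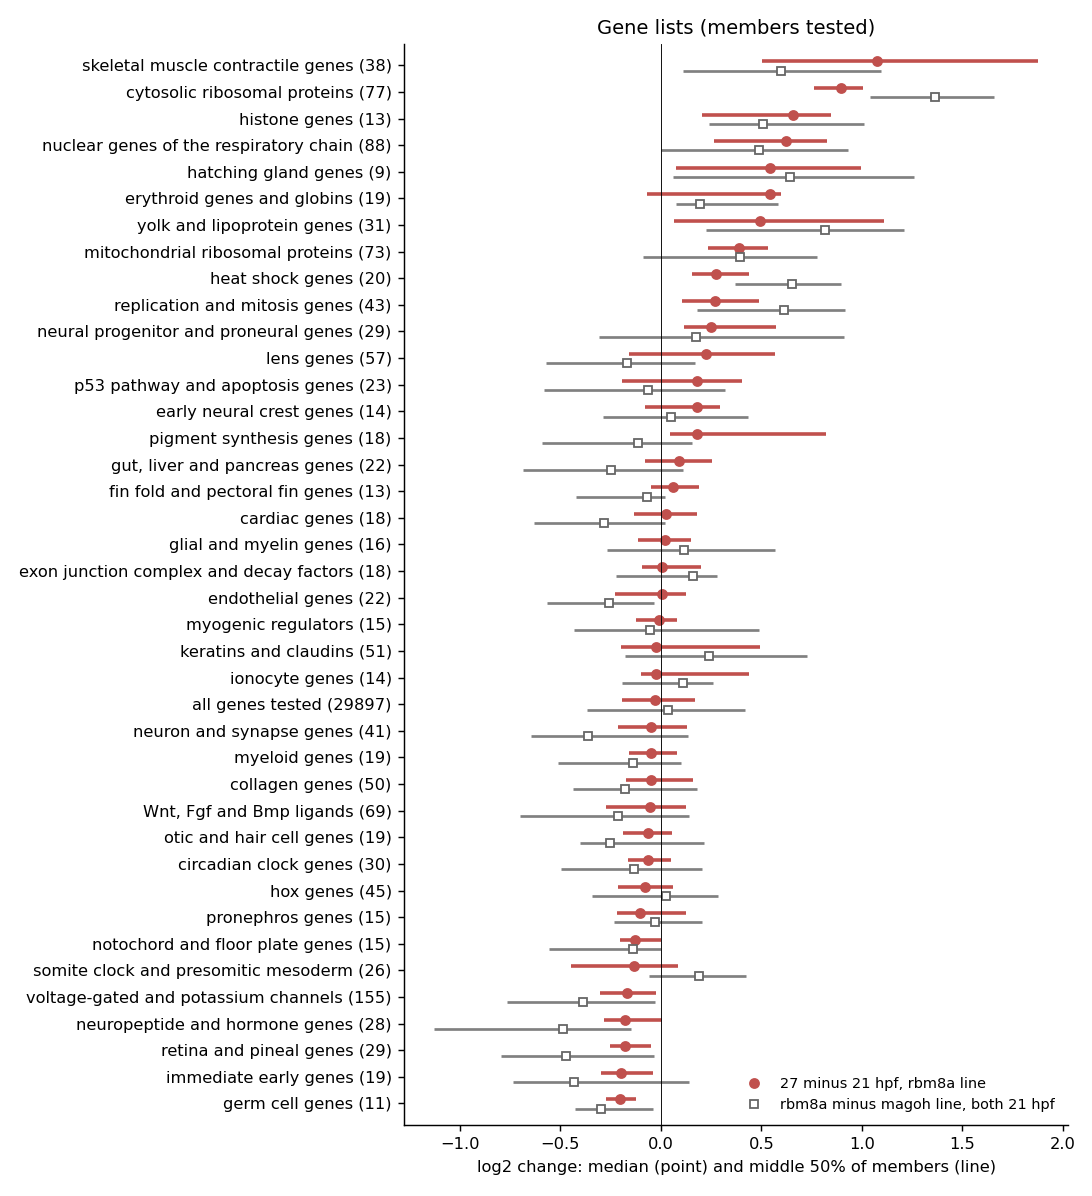
Median log2 change (points) and middle 50% of members (lines) of 39 gene lists and of all genes tested, for 27 minus 21 hpf in the rbm8a line (red circles) and for the rbm8a minus the magoh line at 21 hpf (open squares). Counts of members tested are in brackets. The skeletal muscle list is on top at 1.08, and for cytosolic ribosomal proteins the square (1.36) lies beyond the circle (0.90).

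Setting the 27 hpf rbm8a libraries against the 21 hpf magoh libraries used other 21 hpf embryos but joined the step in time to the difference between lines and tables. Of 29907 genes 3816 (12.8%) passed as higher and 3516 (11.8%) as lower by limma. With the replicate number as a block 2504 passed as higher and 2234 as lower. These counts turned on single libraries. They were 12163 without the magoh library labelled mutant replicate 1, 11715 without magoh sibling replicate 2 and 5295 without rbm8a sibling replicate 1. They were 0 without rbm8a mutant replicate 1 or any 1 of magoh mutant replicates 2 and 3 and sibling replicates 1 and 3, and 2 to 7 without any 1 of the remaining rbm8a libraries, mutant replicates 2 and 3 and sibling replicates 2 and 3. Tnnt3b changed by 1.99, tnnt3a by 2.97, pvalb2 by 2.82, pgam2 by 1.59, krtt1c19e by 1.89 and pmela by 1.29 in this comparison, and msgn1 by -0.84. These genes were picked on the same 27 hpf libraries, so their changes here are not an independent check. In the muscle list 29 of 38 passed as higher and 0 as lower, with a median of 1.60.

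Within labels the step in time was measured with 3 libraries against 3. Of 29897 genes 0 (0%) differed in their step between libraries labelled mutant and sibling by the interaction test of limma, with 793 at an unadjusted p under 0.05 and a smallest adjusted p of 0.149. In libraries labelled mutant the muscle list had a median of 1.43 with 36 members above 0, and in libraries labelled sibling 0.71 with 34 above 0. Cytosolic ribosomal proteins had 1.53 in libraries labelled mutant and 0.21 in libraries labelled sibling. Both shallow 21 hpf libraries carry the mutant label. The 27 hpf library labelled sibling replicate 1 lay low in this list, at 5.73 against 6.85 to 7.29 log2(normalised FPKM + 1) in the others. The cause of the difference between labels was not tested. Within labels the 6 genes changed by 1.56 to 3.07 in libraries labelled mutant and by 1.06 to 2.09 in libraries labelled sibling. They were picked on these same libraries and did not overlap between the times, so a rise within both labels was fixed in advance. With either label alone 0 genes passed in limma.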

How the data were processed

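RNA was measured by rRNA-depleted, strand-specific sequencing of pooled whole embryos. By the study's methods and the submitters' processing notes, reads were trimmed with cutadapt (version 1.16 in the notes, another version in the methods), mapped to GRCz10 with TopHat2 (version 2.0.14), which kept reads with several matches, and counted per gene. The deposited FPKM values were made by the authors with DESeq2, using size factors within each table. The deposited signal column is the authors' mean of normalized counts over the 6 libraries of a table, and was used to recover reads and depth only. Of the recovered values under 200 reads, 100% lay within 0.05 of a whole number. The authors' fold change and p-value columns were not used, nor were the tables of other experiments.

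Tables were joined on gene identifier (30918 genes). Genes were kept that reached an FPKM of 0.5 in 6 or more of the 12 libraries (29897, of which 21476 had a symbol), log2(FPKM + 1) values were quantile normalised over these genes, and limma (version 3.58.1, R version 4.3.3) was fitted with a mean-variance trend. A call needed a Benjamini-Hochberg adjusted p under 0.05 over all genes tested and a 1.5-fold change. Fold changes are on the log2(value + 1) scale, which understates those of low genes. Normalised FPKM is the back-transformed value, in which a 0 can become a small positive number.

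Named genes were rbm8a, magoh and eif4a3, the called genes (up to 12 a direction) without overlap and with a mean FPKM of at least 1, up to 5 called members a list, and the 2 most abundant members of a list without calls. Not every gene this rule names is reported here. The comparison and the lists were chosen with earlier results of these data known. A list of mitochondrially encoded genes matched 0 genes. The study calls its replicates biological. Alternatives were other scalings, pseudocounts, filters, covariates, library weights and leaving out libraries. On simulated data for 27 against 21 hpf, in which genes vary independently, 82 of 100 genes changed 4-fold and 34 of 100 changed 2-fold were recovered among 29897 genes, with 5 unchanged genes called. The changed genes were drawn only from those of higher mean level, and no library was made shallow or outlying. Recovery of low genes was therefore not measured. No sequences are shown.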

Additional observations from a re-analysis of the deposited data

Results flagged for a closer look

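Of 294 measures tested within the 6 libraries of a time, 38 had 1 library whose gap to its nearest neighbour was too large a part of the range of the group by Dixon's criterion. Chance gives about 1 in 20 such groups. There were 12 at 27 hpf and 26 at 21 hpf, and in 24 the library was the 21 hpf library labelled mutant replicate 2. Values below are levels in log2(normalised FPKM + 1), for a list the mean over its members, and their cause was not tested.

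At 27 hpf the library labelled sibling replicate 1 lay below the others in lfng (3.14), rrm2 (3.83), sox19a (3.19), tnnc1b (2.68) and in the lists of cytosolic ribosomal proteins (5.73), nuclear genes of the respiratory chain (2.76), and above them in hoxc12a (4.88), pax6a (3.05). Sibling replicate 3 lay above the others in gata4 (3.50) and mutant replicate 3 in vamp2 (2.43). Mutant replicate 2 lay low in the list of pigment synthesis genes (1.97) and had a mean correlation with the other libraries of 0.940.

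At 21 hpf the library labelled mutant replicate 2, with 1561184 reads, had a mean correlation of 0.814 with the other libraries. It lay above the other 21 hpf libraries in gata4 (6.72), pax6a (4.23), pax8 (7.77), tdrd7a (3.96) and in the lists of cardiac genes (2.10), retina and pineal genes (1.99), neuropeptide and hormone genes (1.99), otic and hair cell genes (2.23). It lay below them in atp5b (3.62), elavl3 (2.26), fabp2 (2.08), fgf16 (1.48), pcna (3.26), pvalb9 (2.25), sall4 (1.14), slc12a10.2 (2.03), sox19a (1.34), tnnc1b (0.92), zic2b (1.61) and in the lists of replication and mitosis genes (2.22), cytosolic ribosomal proteins (4.15), keratins and claudins (2.37), yolk and lipoprotein genes (2.67). Mutant replicate 3 lay below the others in cga (2.31), klf6a (1.90).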

How the results depend on the processing

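The count of 6 genes became 8 with median centring (5 of the 6 among them), 6 with quantile normalization before the filter, without a filter on low values and without a fold threshold, 4780 without scaling, 0 with rank normal scores, 2 with a pseudocount of 0.1, 18 of the 14613 genes that reached an FPKM of 1 in all 12 libraries, 0 with labelled genotype as a covariate, 30 with 1 factor of unwanted variation and 163 with library weights. It was 0 in libraries labelled sibling alone, 0 in those labelled mutant alone, 0 without the 2 shallowest libraries, and 0 to 20 when 1 library was left out. The 18 genes under the stricter filter held 3 of the 6. The cause of these differences was not tested. With the replicate number as a block it was 8, the 6 among them. Same-numbered libraries deviated together at correlations of 0.07 to 0.23, 5 of 6 correlated best with their own number, and the numbers were not taken to pair libraries.

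For the 21 hpf rbm8a against the magoh libraries, the count of 0 was 0 with the replicate block, 2 without the 2 shallowest libraries and 0 to 83 when 1 library was left out. For 27 hpf rbm8a against 21 hpf magoh libraries, 7332 genes became 4738 with the replicate block and 0 to 12163 when 1 library was left out. The interaction count stayed 0 under every alternative run, the replicate block among them. In alternatives chosen after seeing the data, the 113 higher genes without overlap became 20 without scaling and 249 without the 2 shallowest libraries, and the 71 lower ones became 22 with median centring, 3284 without scaling and 292 without the 2 shallowest libraries. With fewer libraries non-overlap is more easily met by chance. Depth limits low genes, and the shallowest library had 2203 tested genes at 0. How far depth moved these counts was not tested.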

Other observations

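Of 223 genes of miRNA precursors tested, 188 lay above 0, beside 46.0% of all genes, with a median change of 0.60. The median was 0.22 without the 2 shallowest libraries and 1.11 between the rbm8a and magoh lines at 21 hpf. Of these genes 0 passed in limma. At an unadjusted p under 0.05 there were 37 higher and 1 lower, beside 4.67% and 3.41% of all genes.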
